A study of Homo sapiens with 4 samples.

Results

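Gene expression after 6 h of methylthioacetic acid (MTA) was compared with that of untreated cells in RCM-1, a human cell line from a rectal tumour whose cells still form an epithelial sheet. The comparison held 2 of the 4 arrays of the study, the MTA 6 h array and the MTA 0 h array. Nearly confluent cells received 1 mM MTA, a small sulphur compound related to aroma esters of a pickling melon, for 6 h. The medium was then replaced by vehicle medium without MTA until 24 h after the addition, so that 18 h had passed since removal. The 0 h cells had no MTA. Acetonitrile, the solvent of MTA, stood at 0.1% in the control medium of the study, and 0.1% is taken here for both arrays. The sources used here do not say plainly whether the 0 h cells, too, were harvested after 24 h. RCM-1 is a single tumour line, the labels name no genetic change in it, and domes were for the most part not yet visible when the RNA was taken.

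Domes are blisters of the cell sheet that lift off the dish over fluid which polarised epithelial cells have moved beneath them, and they serve as a sign of differentiation in such cultures. Metallothioneins, the genes that stood highest here, encode small cysteine-rich proteins that bind zinc and copper. Zinc turns them on through the transcription factor MTF1, which binds short metal response elements before their start sites. Ribosome assembly, whose genes stood low, takes place in the nucleolus, where ribosomal RNA is cut, modified and joined to ribosomal proteins by a large set of factors. Many of these factors are targets of the transcription factor MYC, which binds the E box.

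The promoters are shown here because the genes of these groups carry the comparison, and their letters show the motifs named above. Each sequence is the 250 bases before the start of the gene, 5′ to 3′ on the plus strand of GRCh38.p14, from RefSeq. Capitals mark a metal response element, TGCACNC or TGCGCNC on either strand with overlapping matches merged, in the 3 metallothionein genes, and the E box CACGTG in UTP20, a factor of the small ribosomal subunit. UTP20 also held 1 metal response element, left in lower case. The regions are chr16:56682220-56682469 for MT1X, chr16:56608334-56608583 for MT2A, chr16:56669564-56669813 for MT1H and chr12:101279855-101280104 for UTP20.
MT1X: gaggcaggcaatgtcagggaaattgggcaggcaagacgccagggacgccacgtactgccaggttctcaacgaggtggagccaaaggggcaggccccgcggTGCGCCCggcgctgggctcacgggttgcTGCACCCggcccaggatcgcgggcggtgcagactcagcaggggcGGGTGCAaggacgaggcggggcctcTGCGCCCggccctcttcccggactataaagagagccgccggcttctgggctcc
MT2A: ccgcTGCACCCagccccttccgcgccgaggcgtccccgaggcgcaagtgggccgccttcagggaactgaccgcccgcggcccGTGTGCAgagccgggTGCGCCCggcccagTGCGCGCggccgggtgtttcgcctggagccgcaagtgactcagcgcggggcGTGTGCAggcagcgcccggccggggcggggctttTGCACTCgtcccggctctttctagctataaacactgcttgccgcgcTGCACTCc
MT1H: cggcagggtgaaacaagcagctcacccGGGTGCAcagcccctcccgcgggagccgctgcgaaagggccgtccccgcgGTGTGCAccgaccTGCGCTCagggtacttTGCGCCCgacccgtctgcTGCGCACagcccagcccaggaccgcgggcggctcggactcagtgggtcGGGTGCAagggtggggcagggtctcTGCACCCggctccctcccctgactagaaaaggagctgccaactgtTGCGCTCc
UTP20: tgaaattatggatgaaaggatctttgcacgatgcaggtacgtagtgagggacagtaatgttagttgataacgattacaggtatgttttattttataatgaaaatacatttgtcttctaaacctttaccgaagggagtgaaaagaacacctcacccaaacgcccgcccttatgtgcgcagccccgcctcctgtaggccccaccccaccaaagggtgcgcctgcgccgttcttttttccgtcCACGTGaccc

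MT1X held 4 stretches that matched the metal response element, MT2A held 7 and MT1H held 8. MT1B and MT4, the other metallothioneins with a promoter there, held 3 each, so that 3 of 5 (60%) held 4 or more. Of the 27305 genes with a promoter in the RefSeq set, 0.256% held 4 or more, and of the 7927 genes measured here with a promoter there, 0.416% did. At least 1 stretch stood in 28.5% and 40.8% of these promoters, in 18 of 49 promoters of the small subunit list below (36.7%) and in 21 of 51 of the large subunit list (41.2%), none of which held 4. MT1A, MT1E, MT1F, MT1G, MT1M, MT3 and MT1HL1 had no entry in it. Genes of ribosome assembly, which here are the small subunit, large subunit and small nucleolar RNA particle lists below, held the E box in 19 of 113 promoters (16.8%), against 11.9% of the genes measured here and 4.84% of 62 promoters of ribosomal proteins. A match is a description of letters and was not tested as a binding site, and neither the zinc supply of the cells nor the binding of MYC was measured.

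The authors deposited 1 MAS5 signal, an intensity on a linear scale, for each of 54675 probe sets on each array. Each array was divided by its own median over all probe sets, which was 16.73 at 0 h and 20.83 at 6 h, and signals are given below on the scale of the 0 h array. The log2 ratio is that of the 6 h to the 0 h signal, so that a value of 1 is a 2-fold higher and −1 a 2-fold lower signal at 6 h. Of 54613 probe sets other than controls, 17966 (32.9%) had a deposited signal of 50 or more on both arrays and were kept, and they stood for 9495 genes. With 1 array a side no test was made, "higher" and "lower" describe these arrays alone, and precision is limited by how few arrays there are. In whole cultures, fewer cells of a type and less RNA per cell cannot be told apart.

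As the only error at hand, the log2 ratios of the 2 brightest kept probe sets were compared within genes. The ratios differed with an SD of 0.337 over 4032 genes. The SD was 0.398 where the dimmer probe set had a signal under 200 (2020 genes), 0.277 from 200 to 1000 (1580 genes) and 0.195 above that (432 genes). It is a spread within 1 pair of arrays, and the spread between cultures was not measured. All 12 markers of colorectal epithelium were measured, with a summed signal of 60778 at 0 h and 47855 at 6 h. Keratin 18 (KRT18) had 13733 and 10218, and EPCAM, an epithelial adhesion protein, had 10546 and 8105. Their log2 ratios were −0.43 and −0.38, where all probe sets with a mean signal of 5000 or more had a median of −0.35. As deposited, EPCAM had 10546 and 10089, so the lower sum at 6 h depends on the scaling and is no measure of epithelial content. The intestinal markers CDX2 (55.9 and 47.8) and GPA33 (56.7 and 43.0) were dim and near the filter. The log2 ratios of the 12 ran from −0.002 for CDH1 to −0.95 for CDX1 and −1.07 for CEACAM5. Of 8 fibroblast markers, COL1A1 alone passed the filter, and the summed signal of the 8 was 115 and 108. None of 5 endothelial and 5 immune markers passed, with sums of 50.6 and 62.6 and of 38.8 and 55.9. The 3′ over 5′ signal ratio, a sign of RNA integrity, was 1.64 and 1.44 for GAPDH and 5.76 and 4.76 for ACTB.

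Most genes differed little between the arrays. The median log2 ratio of the kept probe sets was −0.23, and 81.6% of them lay within 0.5 of that median. At a log2 ratio of 1 or more 117 probe sets (0.651%) were higher at 6 h, and 351 (1.95%) were lower at −1 or less. By genes, 67 (0.706%) were higher and 188 (1.98%) lower. Beyond 1.5, 15 probe sets were higher and 17 lower, and beyond 2, 5 were higher and 1 was lower. The higher probe sets had a median signal of 87.2 at 0 h, against 246 for the lower and 248 for all kept ones, and 65 of the 117 higher probe sets (55.6%) were under 100 at 0 h. Among 3479 genes with a deposited signal of 500 or more on both arrays, 2 (0.0575%) were higher and 25 (0.719%) lower. Probe sets just inside the filter, whose lower signal was 50 to 60, had a median log2 ratio of −0.07 (1107 probe sets), and those just outside it, at 40 to 50, had −0.05 (1402).

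The split between higher and lower depended on the scaling. Of the probe sets past the threshold, 25% were higher with division by the array median. The share was 86.7% with the deposited signals (405 higher, 62 lower), 73.8% with each array divided by its trimmed mean (285 and 101), 70.2% with the median of the kept probe sets (268 and 114) and 59.3% after quantile normalization (220 and 151). The median over all probe sets is set by dim ones. Probe sets with a mean signal of 20 to 50 had a median log2 ratio of −0.01, those of 500 to 1000 had −0.28 and those of 5000 or more −0.35. Poly-A control transcripts, spiked in ahead of labelling, had a mean of −0.12 (SD 0.12, 24 probe sets), and hybridization controls, spiked in later, had −0.28 (SD 0.07, 18 probe sets). The median of all genes moved from −0.23 to 0.08 with the deposited signals, a shift of 0.32, and each list below is therefore read against the median of all genes. GAPDH, a glycolytic enzyme used as a loading control, had −0.25 (10570 and 8908), a sign that turned with the deposited signals, and beta-actin (ACTB) had −0.45 (17993 and 13150).

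**Figure D1:**
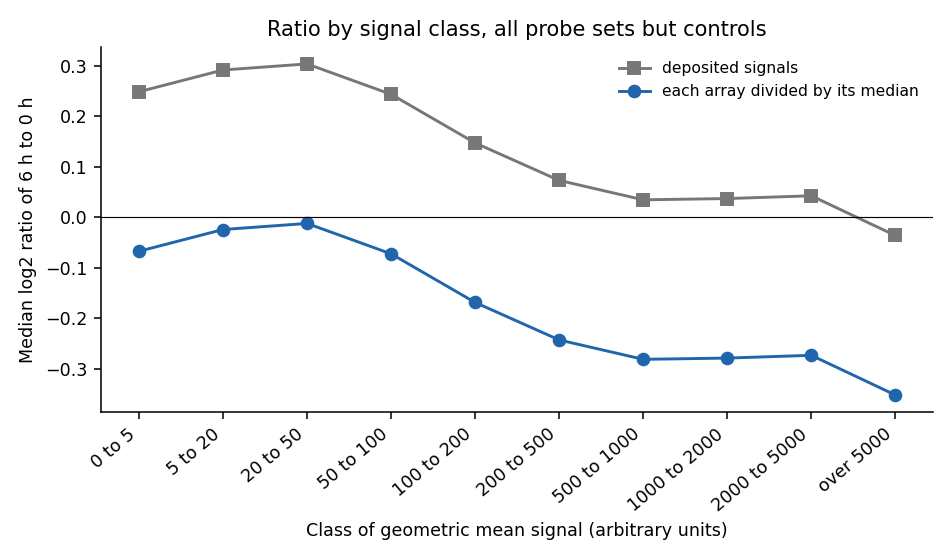
Median log2 ratio of the 6 h to the 0 h signal (vertical axis) in classes of the geometric mean signal of both arrays (horizontal axis), over all probe sets but controls, for the deposited signals (grey squares) and with each array divided by its median (blue circles). With division by the median, classes of 500 or more lie at −0.27 or lower, and the 20 to 50 class lies at −0.01.

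**Figure D2:**
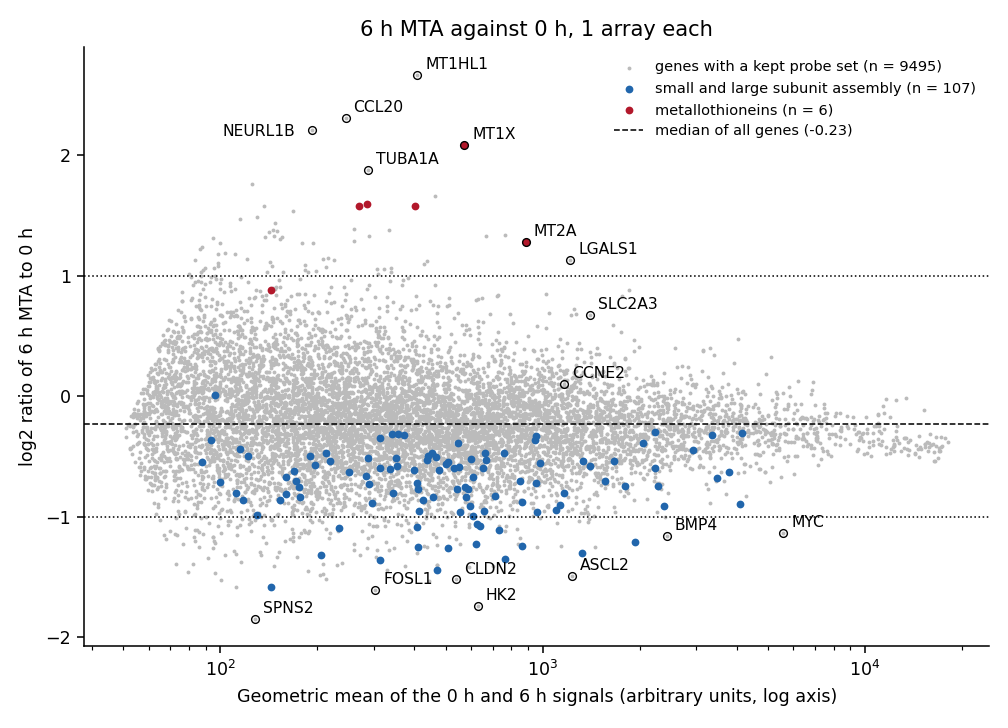
Log2 ratio of 6 h MTA to 0 h (vertical axis) against the geometric mean of both signals (horizontal log axis) for 9495 genes in grey, with metallothioneins in red, factors of small and large subunit assembly in blue and some genes ringed and named. The dashed line is the median of all genes, −0.23, the dotted lines are 1 and −1, the red points lie at 0.88 or more, and all blue points but NOP9, at 0.01, lie below the dashed line.

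Metallothioneins stood at the top of the comparison. Of 6 genes measured, 5 had a log2 ratio of 1 or more, against 0.706% of all genes, and the median was 1.57, against −0.23. MT1X had signals of 249, 1055, 1020 and 739 on the 0, 6, 12 and 18 h arrays, a log2 ratio of 2.08 at 6 h, and a second probe set had 2.20. MT2A, the brightest metallothionein gene measured, had 511, 1241, 1513 and 1378, a log2 ratio of 1.28. In each of these genes the 0 h array was the lowest of the 4. MT1F had 1.59, with 1.18 on its other probe set, MT1G had 1.58 and MT1H 1.57. MT1E had 0.88 by its brighter probe set (95.1 and 175) and 1.62 by the other (58.7 and 181). The highest ratio among all genes belonged to MT1HL1, a relative of the MT1 genes outside the list, at 2.67, with signals of 145, 923, 814 and 980. All these probe sets carry the mark of Affymetrix for probes that can take up other transcripts, so a transcript of 1 member may add to the signal of another. MT1M, MT3 and MT4 were below 50 on both arrays, and MT1A and MT1B were not among the probe sets with 1 gene symbol.

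The list's median was 1.68 at 12 h and 1.5 at 18 h, where all genes had −0.31 and −0.49. These ratios share the 0 h array with that at 6 h. Other genes of metal handling did not stand with the metallothioneins. Of 22 measured transporters and regulators of zinc, copper and iron, none reached 1 and SLC39A10 alone was at −1 or less. Of all genes 0.706% and 1.98% did so. The median of the 22 was −0.29, with 4 (18.2%) in the highest 10% of genes and 2 (9.09%) in the lowest. SLC30A1, which exports zinc and is a target of MTF1, had −0.15, near the median of all genes, with −0.54 on its other probe set, and MTF1 itself had 0.54 with −0.18. SLC39A10, which brings zinc into the cell, had 860 and 430 on the 0 and 6 h arrays, a log2 ratio of −1.0, and SLC30A4, which loads zinc into vesicles, had 0.76.

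**Figure D3:**
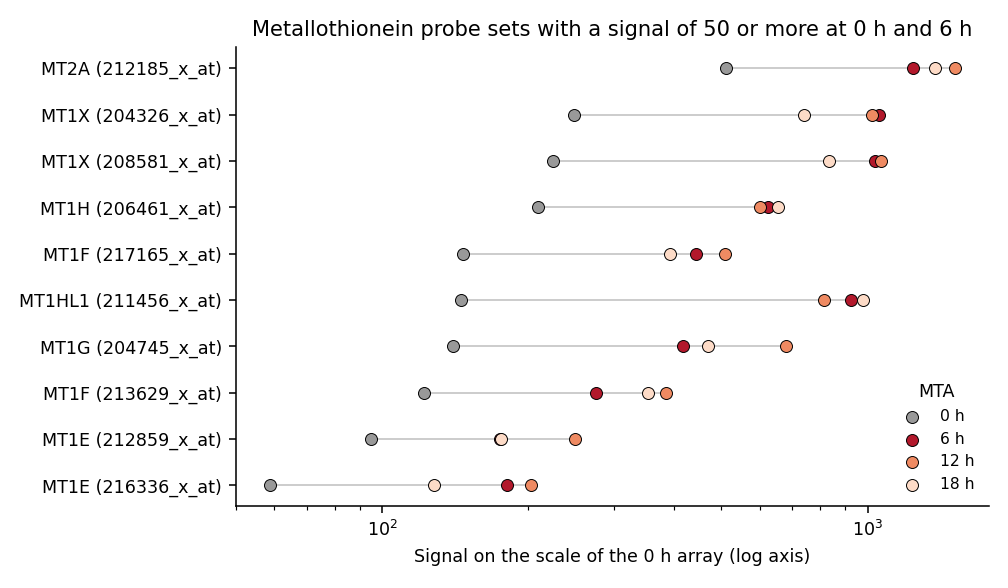
Signals of the 10 metallothionein probe sets kept (rows, gene and probe set) on the scale of the 0 h array (horizontal log axis), with a point for each array at 0, 6, 12 and 18 h of MTA. In every row the grey 0 h point lies left of the other points, for MT1X at 249 against 739 to 1055 on its brighter probe set.

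Factors that assemble ribosomes had lower signals at 6 h. Of 54 measured factors of the small subunit processome and its maturation, 9 had a log2 ratio of −1 or less and none of 1 or more, against 1.98% and 0.706% of all genes, and their median was −0.68. Of 53 factors of large subunit assembly, 7 were at −1 or less and none at 1 or more, with a median of −0.70. The 10% of genes with the lowest ratios held 27 of the former (50%) and 27 of the latter (50.9%). All but NOP9, at 0.01, lay below the median of all genes. RRP12, which takes part in the export of the subunits, was the lowest, with 223, 74.6, 44.5 and 52.8 at 0, 6, 12 and 18 h, a log2 ratio of −1.58. TSR1, a late factor of the small subunit, had −1.45, but from −0.90 to −0.51 on its 3 other probe sets.

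The lower signals ran through early and late steps of assembly. UTP20 and NOP14, of the early particle, had −1.36 and −1.25. EMG1, which methylates the small subunit RNA, had 2631, 1137, 1113 and 688, a log2 ratio of −1.21. PNO1, needed for the last cut of that RNA, had 1190, 503, 337 and 252, a log2 ratio of −1.24, and −1.07 to −0.86 on its other probe sets. For the large subunit, RRS1, which brings in the 5S RNA, had 1094, 429, 286 and 272, a log2 ratio of −1.35. NOP2, which methylates the large subunit RNA, had −1.32, NOP16 −1.30 with −1.02 on its other probe set, and WDR74 −1.26 with −1.91. For EMG1, PNO1 and RRS1 the 0 h array was the highest of the 4 and the 18 h array the lowest. The median of the small subunit list was −0.92 at 12 h and −1.21 at 18 h, and that of the large subunit list was −0.92 and −1.16, where all genes had −0.31 and −0.49.

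The lists around assembly had medians closer to that of all genes than the assembly lists had. The median of RNA polymerase I differed little from the −0.68 and −0.70 of the small and large subunit lists. Core proteins of the small nucleolar RNA particles and the nucleolus had a median of −0.38 over 17 genes, and none was at −1 or less. Of 15 genes of RNA polymerase I, which transcribes ribosomal RNA, POLR1A, its largest subunit, alone was at −1 or less, at −1.10 with −0.57 on its other probe set, and the median was −0.61. Of 19 genes of RNA polymerase III, POLR3E was at −1.01, with −0.46 on its other probe set, and the median was −0.49. Cytosolic ribosomal proteins, the parts that are assembled, had none of 52 past the threshold and a median of −0.41, with values from −0.54 to 0.06. Their median signal at 0 h was 14240, in the range where all probe sets had −0.35, and after quantile normalization their shift from the median of all genes was −0.02 instead of −0.18. Mitochondrial ribosome genes had none of 74 past the threshold and a median of −0.46, with MRPL46 at −0.94 and MRPS30 at −0.92. The lowest 10% of genes held 5 of the 15 genes of RNA polymerase I (33.3%) and 5 of the 19 of RNA polymerase III (26.3%). They also held 15 of the 74 mitochondrial ribosome genes (20.3%), 3 of the 17 of the small nucleolar RNA particle list (17.6%) and none of the 52 cytosolic ribosomal proteins.

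**Figure D4:**
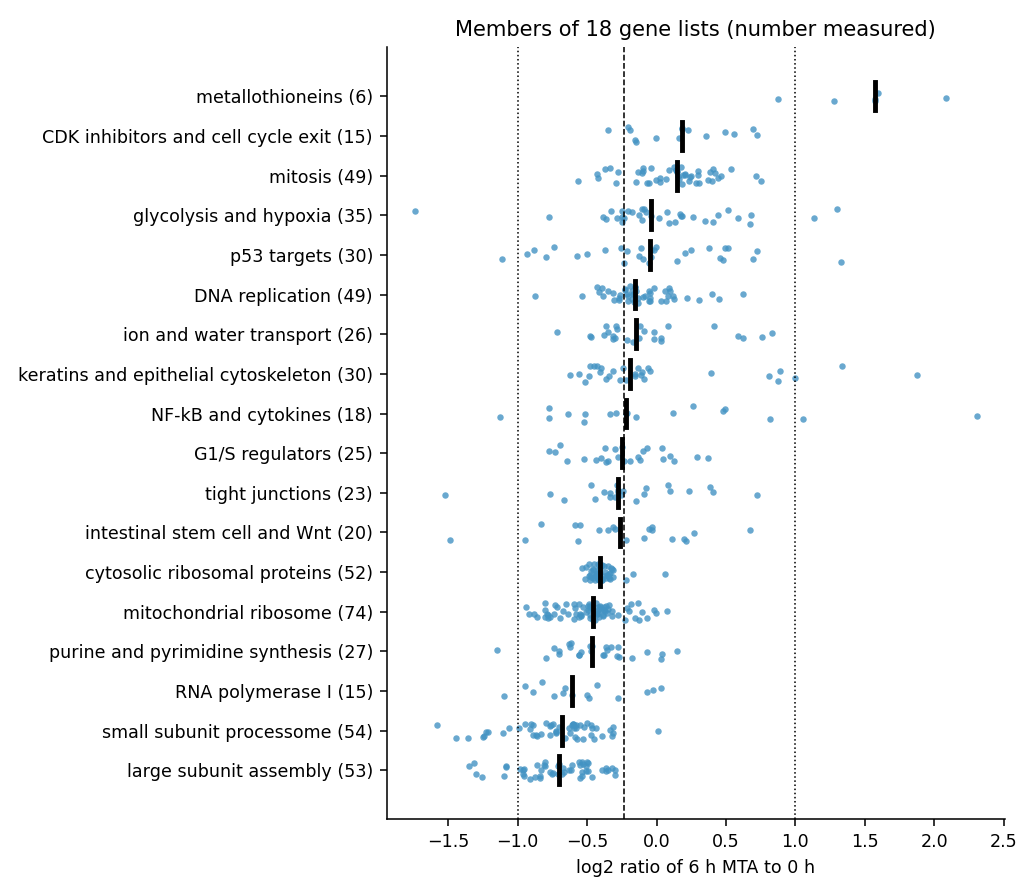
Log2 ratio of 6 h MTA to 0 h (horizontal axis) for the measured members of 18 gene lists (rows, number measured in parentheses), a point for each gene and a thick bar at the median of the list; the dashed line is the median of all genes, −0.23, and the dotted lines are 1 and −1. The metallothionein median lies at 1.57 and those of small and large subunit assembly at −0.68 and −0.70.

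MYC, the growth-promoting transcription factor, was among the bright genes with lower signals, with 7421, 3383, 3054 and 2507 on the 4 arrays, a log2 ratio of −1.13. Its partner MAX had −0.69, and from −0.86 to −0.29 on its other probe sets. MNT, which pairs with MAX and represses the same sites, had 426, 176, 217 and 162, a log2 ratio of −1.28. Of 9 measured genes of this network 2 were at −1 or less, against 1.98% of all genes, and the median was −0.50. Among enzymes of purine and pyrimidine synthesis, DHODH, the mitochondrial step of pyrimidine synthesis, was at −1.15, with a dim signal of 97.8 at 0 h and 44.0 at 6 h. PFAS had −0.79 and CTPS1, which makes CTP, had −0.74, and the median of the 27 enzymes was −0.46. None of 35 proteasome genes was past the threshold, with a median of −0.43 and PSMD3 at −0.99.

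Single genes of growth signalling and of intestinal stem cells were among the lowest. FOSL1, a subunit of AP-1, had 474, 155, 85.1 and 49.6 at 0, 6, 12 and 18 h, a log2 ratio of −1.61. TNFRSF12A, the receptor of TWEAK, had 676, 234, 267 and 128, a log2 ratio of −1.53. ASCL2, a transcription factor of intestinal stem cells and a Wnt target, had 1860, 662, 622 and 520, a log2 ratio of −1.49. The signal at 0 h was 3.05-fold that at 6 h for FOSL1, 2.89-fold for TNFRSF12A and 2.81-fold for ASCL2. TEAD4, the DNA-binding partner of YAP, had −1.58, PLAU, the urokinase protease, had −1.18, and PHLDA1 had −0.83 with −1.14 to −0.55 over its other 5 probe sets. Of 22 genes of ERK output TNFRSF12A alone was at −1 or less (median −0.30), and of 23 immediate early genes FOSL1 alone (median −0.08). Of 20 genes of intestinal stem cells and Wnt it was ASCL2 alone (median −0.26), where 1.98% of all genes were at −1 or less. The lowest 10% of genes held 4 of the ERK output genes (18.2%), 2 of the immediate early genes (8.7%) and 3 of the stem cell and Wnt genes (15%). FOS, the classical immediate early gene, had 0.25 and EGR3 had 0.69.

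Some genes of BMP signalling and of matrix adhesion were also lower. BMP4, a ligand that promotes differentiation along the crypt, had 3267, 1459, 1637 and 1909, a log2 ratio of −1.16, and ID1, a target of BMP signals, had 954, 451, 412 and 283, a log2 ratio of −1.08. BMP4 was lowest on the 6 h array and ID1 on the 18 h array. LFNG, which modifies Notch receptors, had −1.03, while NEURL1B, a ubiquitin ligase that acts on Notch ligands, had 80.1, 370, 587 and 523, a log2 ratio of 2.21. Of the 29 Notch, BMP and TGF-beta genes 3 were at −1 or less and 1 at 1 or more. Of all genes 1.98% and 0.706% did so, and the median of the 29 was −0.20. SMAD3 had 0.47, with −0.66 on its other probe set, SMAD7 had 0.31 and TGFBR3 0.23. Of 25 integrins, laminins and matrix genes 4 were at −1 or less, against 1.98% of all genes: CD151, a tetraspanin that binds laminin receptors, at −1.40, LAMA5, a laminin chain of basement membranes, at −1.38, COL4A2, a collagen of basement membranes, at −1.22, and PLAU. LAMA5 had 344, 132, 165 and 444, so that the 18 h array, taken soonest after MTA was removed, was the highest. The median of this list was −0.23, as for all genes, and FN1, fibronectin, had 0.62.

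**Figure D5:**
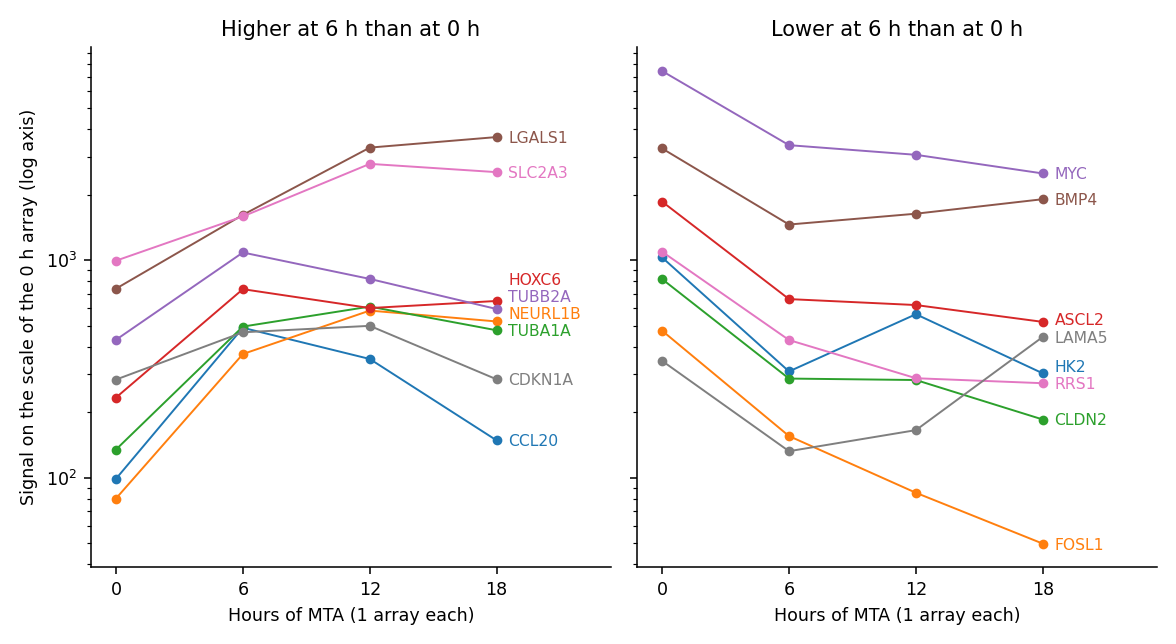
Signals on the scale of the 0 h array (vertical log axis) at 0, 6, 12 and 18 h of MTA (horizontal axis, 1 array each) for 8 genes with higher (left) and 8 with lower (right) signals at 6 h than at 0 h; lines join the arrays of a gene. CCL20 has 98.6, 489 and 148 at 0, 6 and 18 h, LGALS1 is highest at 18 h (3687), HK2 is at 308 at 6 h and 564 at 12 h, and LAMA5 is highest at 18 h (444).

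Barrier and transport genes, whose products make and hold the fluid of domes, had few members past the threshold. The same held for all genes, of which 0.706% were higher and 1.98% lower. CLDN2, a tight junction protein that forms a pore for cations and water, had 819, 285, 281 and 185 at 0, 6, 12 and 18 h, a log2 ratio of −1.52, and it alone of 23 tight junction genes was past the threshold. PARD6B, a polarity protein at these junctions, had 876 and 1443 at 0 and 6 h, a log2 ratio of 0.72, and 659 and 901 later. None of 26 genes of ion and water transport was past the threshold, and their median was −0.15. AQP3, a channel for water and glycerol, had 271, 482, 622 and 549, a log2 ratio of 0.83. CA2, a carbonic anhydrase of the colon surface, had 285, 482, 301 and 121, a log2 ratio of 0.76, and was highest on the 6 h array. KCNE3, a potassium channel subunit of the colon, had −0.72.

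Markers of mature enterocytes were mostly dim. Of 50 genes 17 were measured, CEACAM5 alone was past the threshold, and the median was −0.28. CEACAM5, a surface glycoprotein of the colon, had 632, 301, 239 and 198, a log2 ratio of −1.07. Villin (VIL1) had −0.10 and keratin 20 (KRT20) −0.26, near the median of all genes. PKP3, a desmosome protein, had −1.03 and DSC2, a desmosomal cadherin, −0.97, with −0.89 and −0.02 on its other probe sets. PKP3 was the only one of 19 genes of adherens junctions and desmosomes past the threshold, and their median was −0.24, with values up to 0.87.

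The cytoskeleton held some of the largest differences toward higher signals. TUBA1A, an alpha-tubulin, had 135, 495, 612 and 476, a log2 ratio of 1.88, and TUBB2A, a beta-tubulin, had 430, 1085, 820 and 596, a log2 ratio of 1.33. TUBB2B had 0.89, but TUBB3 had −0.13, with −0.61 on its other probe set, and TUBA4A −0.22, near the median of all genes. TUBB2A and TUBB2B are close in sequence, and their probe sets may share transcripts. The myosin light chains MYL9 and MYL12A had 0.99 and 0.88. MYL9 had a dim 55.3 at 0 h, near the filter, and MYL12A, with 1229, 2257, 1192 and 1312, was high on the 6 h array alone. CNN3, a calponin that binds actin, had 88.2, 256, 269 and 152, a log2 ratio of 1.54. CNN3 was outside the cytoskeleton list. Of its 30 genes 2, TUBA1A and TUBB2A, were at 1 or more, against 0.706% of all genes, 7 lay in the highest 10% of genes and the median was −0.19. The keratins KRT80 and KRT7 had −0.62 and −0.52.

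Among chemokines, CCL20, which draws immune cells to the gut wall, had 98.6, 489, 351 and 148 at 0, 6, 12 and 18 h, a log2 ratio of 2.31, the second highest of all genes. CXCL8 (interleukin 8) had 190, 394, 235 and 74.2, a log2 ratio of 1.05. For both genes the 6 h array was the highest of the 4. CXCL3 had −1.12, with dim signals of 114 and 52.2. NFKBIZ, an inducible cofactor of NF-kB, had 0.82 and 0.53 on its probe sets, and TNFAIP3, a feedback inhibitor, 0.49, while the subunit NFKB1 had −0.78 and the subunit RELA −0.52, with 0.36 on its other probe set. Of 18 genes of this list 2 were at 1 or more and 1 at −1 or less, against 0.706% and 1.98% of all genes, and the median was −0.22.

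In glucose metabolism, isoforms of an enzyme or transporter had different ratios. HK2, the inducible hexokinase, had 1030, 308, 564 and 302, a log2 ratio of −1.74, the second lowest of all genes, while HK1 had 0.35. SLC2A1, a glucose transporter, had −0.77, with −0.33 on its other probe set, and SLC2A3, another, had 995, 1590, 2775 and 2542, a log2 ratio of 0.68, with 0.64 and 1.01 on its other probe sets. ENO2 had 87.2, 215, 267 and 215, a log2 ratio of 1.30, and ENO1, near the median, had −0.13, a sign that turned with the deposited signals, and −0.47 and −0.29 on its other probe sets. PFKFB4, which sets the level of a regulator of glycolysis, had 126, 278, 421 and 330, a log2 ratio of 1.14. Of 35 genes of glycolysis and hypoxia 2 were higher and 1 lower, against 0.706% and 1.98% of all genes, 9 lay in the highest 10%, and the median was −0.04. ANKRD37, a target of hypoxia-inducible factor, had 0.68, and VEGFA, another, had −0.18, with −0.53 to −0.25 on its other probe sets.

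In the cell cycle, genes of division stood somewhat above the median of all genes and none was past the threshold. The 49 mitosis genes had a median of 0.15, and 42 of them lay above the median of all genes, 13 in the highest 10%. SPC25, a kinetochore protein, had 316, 533, 485 and 412, a log2 ratio of 0.76, ESPL1, the separase, had 0.72 with 0.28 on its other probe set, and NUSAP1 had 0.53 and 0.45. CCNB1, the mitotic cyclin, had −0.43. Genes that hold back the cycle had a median of 0.18 over 15 genes, with CDKN1A (p21) at 282, 466, 499 and 283, a log2 ratio of 0.72, CCNG2 at 0.69 with 0.72 on its other probe set, and CDKN2B at 0.56. The 49 replication genes had a median of −0.15 and the 25 G1/S regulators −0.25, with no gene of either past the threshold. At 18 h the medians of the replication genes and the G1/S regulators were −1.03 and −1.03, where all genes had −0.49. The mitosis genes then had 0.51 and the genes that hold back the cycle −0.29.

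CCNE2, the cyclin that starts S phase with CDK2, had 1012, 1085, 417 and 153 at 0, 6, 12 and 18 h, a log2 ratio of 0.10, and −0.19 on its other probe set. CDC25A, the phosphatase that activates CDK2, had 151, 88.3, 25.4 and 15.5, a log2 ratio of −0.77, with −0.34 on the second kept probe set. The difference between the probe sets of CDC25A, at signals of 88.3 and 88.9 at 6 h, was close to the SD of 0.398 between dim probe sets of a gene. The ratio of CCNE2 was smaller than the difference between its probe sets.

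In the list drawn up for p53, SESN3, a sestrin that restrains growth signals, had 163, 410, 524 and 590, a log2 ratio of 1.33. TNFRSF10A, a death receptor, had −1.12 with −0.96 on its other probe set. Whether p53 acts on the genes of this list was not tested. The median of its 30 measured genes was −0.05, 8 lay in the highest 10% and 5 in the lowest. The 9 clock genes measured had a median of 0.05, with the repressor NR1D2 at 1.03 (0.47 on its other probe set) and PER2 at 0.65. RRAGD, a GTPase that regulates mTORC1 at the lysosome, had 87.2, 179, 258 and 215, a log2 ratio of 1.03, and the 50 genes of autophagy and lysosome had a median of −0.18. LGALS1, galectin-1, had 739, 1616, 3296 and 3687, a log2 ratio of 1.13, and LGALS1 and MT2A were the 2 genes of 500 or more on both arrays that were higher. HOXC6, a homeobox factor, had 233, 736, 602 and 649, a log2 ratio of 1.66.

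The medians of the stress lists stood near that of all genes, −0.23. Heat shock proteins had a median of −0.26 over 20 genes, the unfolded protein response −0.25 over 25, NRF2 and glutathione genes −0.27 over 33 and ATF4 targets −0.33 over 28. HMOX1, heme oxygenase, had −1.11 with dim signals of 110 and 51.0, and TRIB3, a target of ATF4, had 611, 276, 330 and 270, a log2 ratio of −1.14. Genes of the methionine cycle and polyamines, some of which handle methylthio groups in the cell, had none of 32 past the threshold and a median of −0.19.

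Of genes outside the lists, SPNS2, a transporter of sphingosine 1-phosphate, was the lowest of all at −1.85, with 218, 60.6, 142 and 87.9. PKDCC, a secreted kinase, had −1.53, ECE2, an endothelin-converting enzyme, −1.47, NAGPA, of lysosomal sorting, −1.47 and ZHX2, a repressor, −1.48. At 6 h PKDCC and NAGPA had dim signals of 53.2 and 52.0. HGH1 had −1.52 with −0.91 on its other probe set, LANCL2 −1.45 with −0.89 and SMIM11 −1.46 with −0.39. Toward higher signals stood TMEM98 at 1.76, TTYH2 at 1.58, TCEA2, an elongation factor, at 1.49, C1orf115 at 1.44 and GKAP1 at 1.47 with 0.45 on its other probe set, from signals of 61.2 to 80.5 at 0 h. Of 13 higher genes with more than 1 kept probe set, 4 had every other one at 1 or more, and of 46 lower genes 8 had every other one at −1 or less. Their other probe sets lay above the median of all genes in 13 of 13 and below it in 42 of 46.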

How the data were processed

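RNA of RCM-1 cells was hybridized to Affymetrix U133 Plus 2.0 arrays, 1 for each time, by the array's manufacturer. The authors deposited MAS5 signal intensity values from Affymetrix Expression Console, and the sources used here name neither its version nor the scaling target. From these, each array was divided by its median, log2 ratios were taken without a pseudocount, and the 62 control probe sets were left out. Of the kept probe sets 15802 had 1 gene symbol in GEO's platform annotation, 801 several and 1363 none, and a gene was represented by its brightest kept probe set with 1 symbol. List symbols were matched through the RefSeq table of GRCh38.p14 (6 updated).

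The genes named were the 15 highest and 15 lowest, the 10 highest and 10 lowest of 500 or more on both arrays, up to 4 members of each list farthest in the direction of its median, list members past the threshold the other way, genes under 50 on 1 array and at 200 or more on the other, and GAPDH, ACTB, CCNE2 and CDC25A. The comparison, the 50 lists (1692 genes, 1295 measured) and this rule were chosen with earlier results of these data known. Named after their values were seen were MT1HL1 as a relative of the metallothioneins, COL1A1, HAPLN3, isoforms and lists' members set beside those of the rule, and the counts in the highest and lowest 10% of genes. Alternatives changed the scaling, the filter, a pseudocount, the fold and the probe set that stands for a gene. The calculation was tested on simulated data. The tools were NumPy 2.4.6 and SciPy 1.17.1, pandas 2.3.3, and matplotlib 3.10.9 for figures, under Python 3.11.15.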

Additional observations from a re-analysis of the deposited data

How the results depend on the processing

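Higher and lower probe sets numbered 117 and 351 as reported. By scaling they numbered 405 and 62 with the deposited signals, 268 and 114 with each array divided by its median over the kept probe sets, 285 and 101 with the trimmed mean (2% at each end) and 220 and 151 after quantile normalization. By filter they numbered 310 and 517 at 25 or more on both arrays, 52 and 226 at 100, 18 and 127 at 200, 258 and 418 at a geometric mean of 50, and 8310 and 8315 without a filter. With the median of the array added to each signal they numbered 62 and 212, and at a log2 ratio of 1.5 they numbered 15 and 17. With probe sets of 1 symbol there were 91 and 319. Of 75 named genes past the threshold, 45 stayed past it in the same direction with the deposited signals, 57 with the kept median, 54 after quantile normalization and 62 with the median added, and none changed sign. With the deposited signals 4 of the 238 genes chosen by the rule, GAPDH, ERRFI1, LRIG1 and MUC13, changed sign, and so did ENO1, KRT20, VIL1, SLC30A1, TUBA4A, TUBB3 and VEGFA, which were named beside them. After quantile normalization EPCAM, PPIA, HSPD1, ACTB, RPS18, RPS19, RPL35A and RPS6, all bright, moved toward 0 by more than the SD of 0.337 between probe sets of a gene. The 12 lists whose median lay 0.2 or more from that of all genes kept the sign of that shift in all 6 settings tried. No paired analysis was possible because each time has 1 array and the shared replicate number 1 pairs nothing. Signal over background limits dim genes most, and variation between cultures was not measured.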

Other observations

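Some genes were below 50 on the 0 h array and so entered no count. CSRP2, a LIM protein of the cytoskeleton, had 36.1, 205, 239 and 177 on the 0, 6, 12 and 18 h arrays, NES (nestin), an intermediate filament protein of progenitor cells, had 47.0, 192, 251 and 193, and PRAME, a tumour antigen, had 39.9, 166, 186 and 204. These are all 3 genes without a kept probe set that had 200 or more as deposited at 6 h and under 50 at 0 h, and none was found the other way. The rule acts on deposited signals, and the 6 h array had the higher median (20.83 against 16.73). As deposited, 1977 probe sets had 50 or more at 6 h only and 503 at 0 h only. After division by the array median these were 1011 and 1076, so the direction of this split depends on the scaling. The 3 MTA arrays lay above the 0 h array for each. HAPLN3, a protein of the matrix, had 6.87, 111, 68.9 and 43.2. COL1A1, a collagen of connective tissue, had 7.64, 123, 115 and 147 on 1 probe set, but 58.4, 61.7, 45.2 and 40.2 on the only one of its 5 that was kept. The kept one carries the mark of Affymetrix for probes that can take up other transcripts. The other 3 probe sets of COL1A1, below 50 on both arrays, had log2 ratios of 1.81, 1.77 and 1.44.

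The remaining lists held 1 gene past the threshold at most, where 0.706% of all genes were higher and 1.98% lower. In the interferon response OASL had 1.01, with 0.47 on its other probe set, and the median of 30 genes was −0.11. The signal of OASL at 0 h was 50.6, just above the filter. Among apoptosis regulators AVEN, an inhibitor of cell death, had 626, 278, 148 and 108, a log2 ratio of −1.17, and APAF1, of the apoptosome, had 0.97, with a median of −0.03 over 22 genes. HSD17B2, a steroid enzyme, had −1.17 among 17 genes of xenobiotic metabolism (median −0.26), and ID1 was the only one of 22 intestinal transcription factors past the threshold (median −0.22). No gene was past it among aminoacyl-tRNA synthetases (median −0.39, 17 genes), S100 proteins and annexins (−0.30, 18), the respiratory chain (−0.27, 61), polyadenylated histone genes (−0.23, 13), cholesterol synthesis (−0.18, 21), goblet and secretory genes (−0.17, 12), EGFR ligands and receptors (−0.14, 10), chromatin regulators (−0.14, 33), fatty acid oxidation (−0.12, 15) and housekeeping genes (−0.30, 11).

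Among bright genes outside the lists, NDUFAF4, an assembly factor of respiratory complex I, had 1575, 665, 491 and 391, a log2 ratio of −1.24 with −0.76 on its other probe set, and PBDC1 had 2008, 844, 784 and 713, a log2 ratio of −1.25 with −1.53 on its other probe set. IFRD2 had −1.26, ADAP1 −1.23 with −1.08 on its other probe set, and DNAAF2, which helps to assemble dynein arms, −1.18. Toward higher signals GLRX, glutaredoxin, had 686, 1236, 1271 and 671, a log2 ratio of 0.85 with 0.18 on its other probe set, and ASPH had 0.83 with −0.23 to 0.22 on its other probe sets.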
